A study of Mus musculus with 29 samples.

Results

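Immune cell lineage marker genes are genes whose transcripts are used to read which white blood cells a tissue holds, and 37 of them were described here in mouse hearts during heart failure (HF) and after it. The members were the rows of the expression table that carry 1 of 37 gene symbols on a list, and all 37 were found among its 29955 genes. They were kept apart by lineage. The myeloid group held 28 members, of which 6 are shared by most leukocytes, 20 were counted as genes of macrophages and monocytes and 2 as genes of neutrophils and monocytes. The lymphoid group held 7 members and the mast cell group 2. The groups are not exclusive: Tyrobp and Fcer1g, counted among the 20, are shared by NK and mast cells, and Cd4 is also on some myeloid cells.

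All mice were male C57BL/6J animals that entered the study at 3 months of age. HF was induced over 5 weeks by drinking water that held NaCl at 1% and L-NAME, a blocker of nitric oxide synthase, at 0.3 mg/ml, and with 0.7 mg/kg of angiotensin II a day from a pump that lasts 28 days. The agents were then withdrawn, and hearts were collected at intervals up to week 19 and set beside hearts of age-matched untreated mice. The groups used here, with study weeks counted from the start of induction, were HF week 3 (2 libraries), HF week 5 (3), Recovery week 7 (2), Recovery week 9 (2), Recovery week 11 (3), Recovery week 13 (2), Recovery week 19 (5) and Control week 19 (5). No group of untreated hearts of week 3 to week 13 entered, so age and treatment cannot be told apart in any comparison of those weeks with Control week 19. The labels call the tissue whole heart or whole ventricle, while the methods name the frozen apical part. The experiment was run in several cohorts, and which cohort a library came from is not given in the labels. Nothing ties a column to a single animal, so the p-values measure the spread between libraries.

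Macrophages are the main white cells of the healthy heart, where long-lived resident cells stand beside others renewed from blood monocytes. After injury, monocytes and neutrophils enter from the blood, clear debris and release enzymes and cytokines, and macrophages with lysosomal and lipid-handling programmes remain during repair. T, B and NK cells are fewer, and mast cells are rare cells of the connective tissue. In bulk RNA, fewer cells of a type and less RNA per cell cannot be told apart.

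The values are FPKM, fragments scaled by transcript length and by the total of mapped fragments, so that levels of different genes can be compared per length. The relative depth of 23 libraries spanned 0.728 to 1.40 of that of Control week 19 library 1, while depth in reads is unknown. No such value could be read for HF week 3 library 1, which stood apart: it listed 12816 genes above 0, and every other library listed 16339 to 18091. The cardiomyocyte genes Tnnt2, at 4391 to 9465 FPKM, and Tnni3, at 7280 to 14406 FPKM, were high in every library, but Myh6, Actc1, Mb and Myl2 were listed at 0 in every control library, so an exact 0 can be a failed estimate. Myh6 was also at 0 in every HF week 5 and Recovery week 19 library, and Mb in every Recovery week 19 library. Other tissue genes set most of the HF libraries apart, as the plot of members and other tissue genes by library shows. Summed over Myl7, Myl4, Sln and Bmp10, genes of the atrium that were chosen after their values were seen, the level was 7737 and 14050 FPKM in HF week 3, 39730, 415.0 and 15.5 FPKM in HF week 5, and 3.04 to 13.4 FPKM in the other 19 libraries. The 5 adipocyte genes summed to 246.1 and 112.1 FPKM in HF week 3, to 261.2, 240.9 and 1.98 FPKM in HF week 5 and to at most 1.50 FPKM elsewhere. HF week 5 library 1 also held 48.1 FPKM of the airway gene Scgb1a1, against at most 0.261 FPKM outside HF. The part of this tissue in the HF results was not tested, and the counts of members called in the comparisons with HF week 5 are therefore given with and without the 4 libraries that held over 100 FPKM of Myl7.

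**Figure D1:**
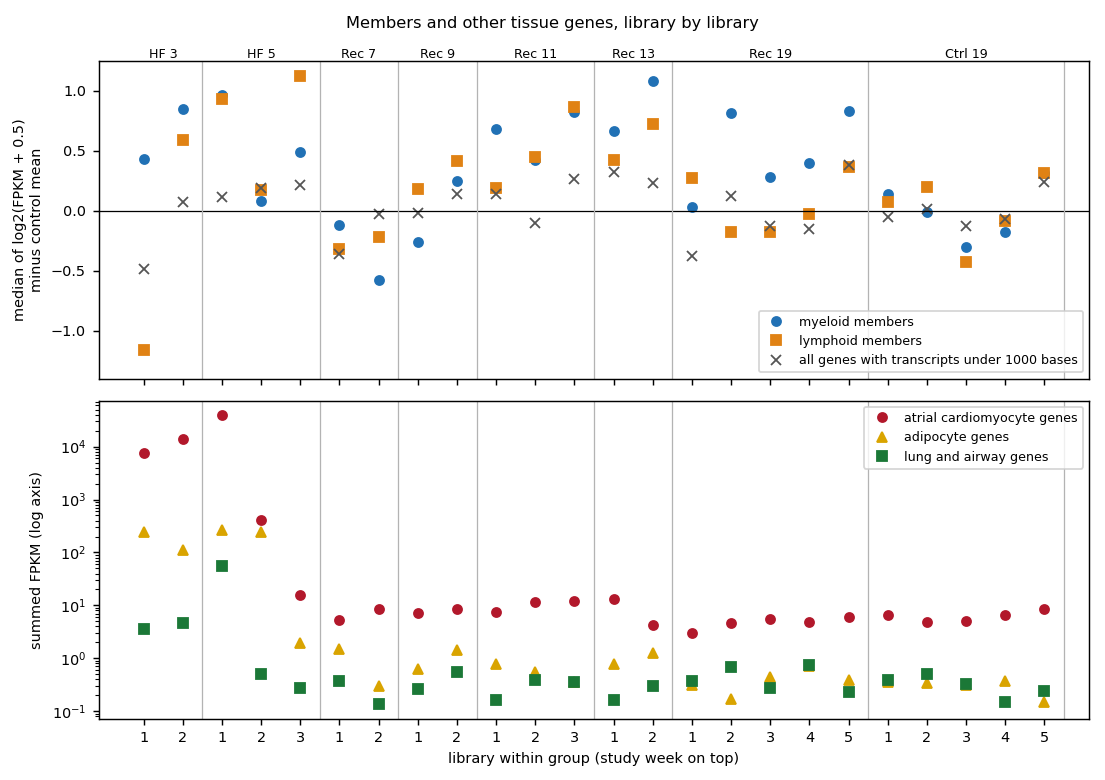
Upper panel, median difference of the tested myeloid and lymphoid members, and of all genes with transcripts under 1000 bases, from the control mean on the log2(FPKM + 0.5) scale, for each of 24 libraries. Lower panel, summed FPKM of 3 lists of other tissue genes on a log axis; the atrial genes lie above 100 FPKM in 4 of 5 HF libraries and at 13.4 FPKM or below in every recovery and control library.

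Of the 37 members, 32 averaged 0.5 FPKM or more across all 24 libraries and were tested with limma on log2(FPKM + 0.5). They were 27 of 28 myeloid members, 4 of 7 lymphoid members and 1 of 2 mast cell members. Itgax, Cd3e, Cd4, Cd8a and Cpa3 stayed under that level and are given as values only. In the control hearts the highest member was Lyz2, the lysozyme of macrophages and neutrophils, at 97.5 ± 27.7 FPKM (SD, n = 5). It was followed by Tyrobp, the adaptor of activating receptors also known as DAP12, at 47.7 ± 19.3 FPKM, and by Fcer1g, the shared signalling chain of Fc receptors, at 30.7 ± 13.7 FPKM. The ranges over libraries overlapped, with Tyrobp at 30.7 to 80.2 FPKM and Lyz2 at 67.5 to 140.6 FPKM, but the order Lyz2, Tyrobp, Fcer1g held within each of the 5 control libraries. Cd68, a lysosomal glycoprotein of macrophages, stood at 6.69 ± 1.76 FPKM, and Ptprc, the phosphatase CD45 of all leukocytes, at 0.668 ± 0.225 FPKM. No lymphoid member exceeded a control mean of 1 FPKM, and the highest of them was Cd79b at 0.751 ± 0.472 FPKM. Lyz1 and Lyz2 are close copies of one gene, and how the counting shared their reads is not given, so the split between them is uncertain.

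**Figure D2:**
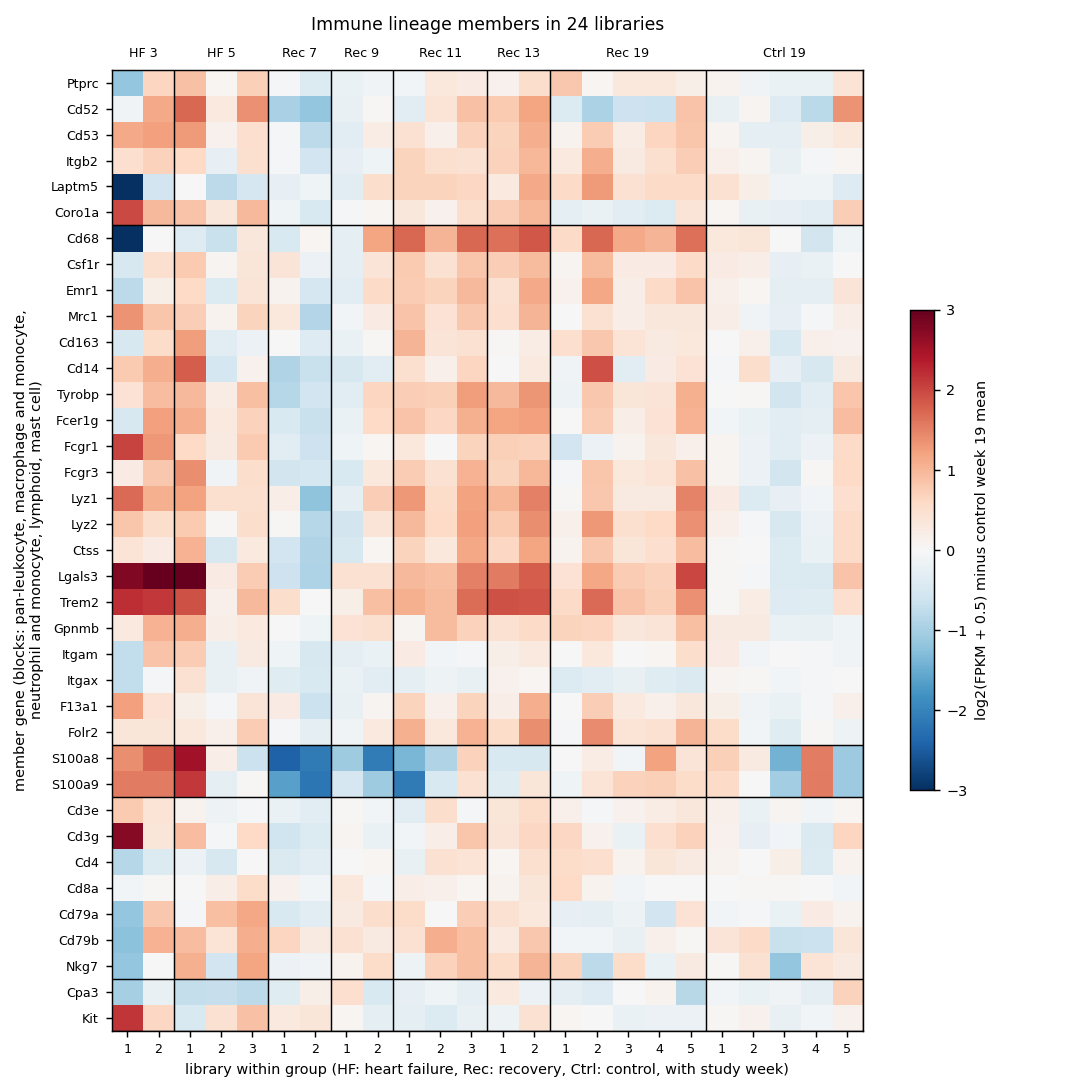
Level of all 37 members (rows, in blocks by lineage) in 24 libraries (columns, by group and study week) as the difference in log2(FPKM + 0.5) from the mean of the Control week 19 libraries. Red is higher and blue lower, with the colours ending at 3 either way; most myeloid rows turn from blue at Recovery week 7 to red at weeks 11 and 13, and Lgals3 is deep red in both HF week 3 libraries and HF week 5 library 1.

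Inside the recovery period, the myeloid members were compared between its first and its middle weeks. All 27 myeloid members tested were higher, on the mean, at Recovery weeks 11 and 13 than at weeks 7 and 9, with a median log2 difference of 0.93, whereas the median over all genes tested was 0. The 4 lymphoid members tested were higher too, with a median of 0.48, and the mast cell gene Kit stood at -0.19. This comparison was chosen after the values were seen, so its p-values describe the pattern and are no independent evidence of it. None of the members passed the Benjamini-Hochberg adjusted p over 12759 genes, where the background of genes called higher was 0.00784%. At the unadjusted p of limma 21 myeloid members and none of the others passed, against 5.28% of all genes called higher. Whether the lineages differ in this was not tested. The 5 libraries of weeks 11 and 13 lay wholly above the 4 of weeks 7 and 9 for 15 members, all of them myeloid, against 3.09% of all genes.

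Among the receptors and their adaptors, Tyrobp read 24.5 and 30.1 FPKM at week 7 and 36.3 and 70.3 FPKM at week 9. At week 11 it read 75.7, 74.7 and 107.9 FPKM, and at week 13 it read 89 and 113.0 FPKM. Both sets of libraries were apart, and the log2 difference was 1.30 ± 0.276 (SE) with an adjusted p of 0.108. Trem2, the lipid-sensing receptor that signals through Tyrobp, read 4.7, 3.05, 3.56 and 6.19 FPKM at weeks 7 and 9. Its 7, 6.42, 11, 13 and 12.9 FPKM at weeks 11 and 13 all lay higher, and the difference was 1.17 ± 0.302 with an adjusted p of 0.206. Fcer1g read 20.8, 18.1, 25.2 and 43.6 FPKM and then 52.7, 44.8, 61.3, 66.1 and 68.8 FPKM, a difference of 1.21 ± 0.312. Fcgr3, a receptor for IgG, read 9.59, 9.82, 10.3 and 18.1 FPKM and then 24.7, 19.7, 29.8, 22.9 and 29 FPKM, a difference of 1.09 ± 0.277. The libraries were separate for both. Csf1r, the receptor of macrophage colony-stimulating factor, moved less, by 0.68 ± 0.219, from 7.63 to 12.4 FPKM at the early weeks to 12.9 to 18.5 FPKM at the middle ones.

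Next came the members that work in lysosomes. Ctss, the protease cathepsin S, read 9.15, 7.17, 9.86 and 14.5 FPKM at weeks 7 and 9. Its 22.2, 17.4, 31.7, 21.7 and 32.1 FPKM at weeks 11 and 13 lay wholly above, and the difference was 1.28 ± 0.263 with an adjusted p of 0.108. Cd68 read 4.58 and 6.85 FPKM at week 7 and 5.32 and 15.4 FPKM at week 9. At weeks 11 and 13 it read 22.8, 13.7, 22.8, 21.5 and 25.1 FPKM, and since 1 library of week 9 lay above 1 of week 11 the sets overlapped. Lyz2, at 52 to 124.4 FPKM early and 144.0 to 249.5 FPKM in the middle weeks, differed by 1.26 ± 0.286. Gpnmb, a lysosomal membrane glycoprotein, differed least among the lysosomal members, by 0.35 ± 0.215. It read 0.574, 0.484, 0.942 and 1.01 FPKM and then 0.634, 1.57, 1.24, 0.981 and 1.11 FPKM, and the sets overlapped.

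Of the members shared by leukocytes, Itgb2, the β2 integrin chain, had the lowest p of all 32, with a difference of 0.94 ± 0.182 and an adjusted p of 0.0846. It read 1.67, 1.02, 1.41 and 1.55 FPKM and then 3.08, 2.64, 2.58, 3.14 and 4.01 FPKM. Coro1a, an actin-binding protein of leukocytes, read 7.33, 5.76, 7.77 and 8.43 FPKM and then 10.3, 8.96, 11.8, 13.8 and 16.7 FPKM, with separate libraries and a difference of 0.75 ± 0.228. Ptprc differed by 0.42 ± 0.273, and its 0.369 to 0.63 FPKM early overlapped the 0.589 to 1.15 FPKM of the middle weeks. Folr2, a folate receptor, read 11.1, 9.12, 10.5 and 14 FPKM and then 24.4, 14.2, 23.8, 16.8 and 30.7 FPKM, a difference of 0.93 ± 0.262. Mrc1, the mannose receptor, read 3.16, 1.09, 2.24 and 2.98 FPKM and then 4.8, 3.41, 4.65, 3.61 and 5.42 FPKM, a difference of 0.83 ± 0.209. Cd163, the scavenger receptor for haemoglobin, read 2.22, 1.61, 1.88 and 2.3 FPKM and then 5.04, 3.1, 3.26, 2.31 and 2.73 FPKM, a difference of 0.52 ± 0.268. Libraries of these receptors were separate, by a narrow gap in Folr2 and Cd163, and Cd163 did not pass at the unadjusted p. S100a8, which with S100a9 forms calprotectin of neutrophils, read 0.827 to 2.92 FPKM early and 2.25 to 11 FPKM in the middle weeks, and the sets overlapped.

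How many of these differences passed turned on the libraries in the fit. With only the libraries of Recovery weeks 7 to 13 in it, 13 members passed the adjusted p, at 0.00578 to 0.0478, against 1.35% of all genes called higher in that fit. Without the 4 libraries rich in Myl7, 8 passed, all of them myeloid, against 0.565% of all genes. When each library was rescaled without its 10 highest genes, the median over all genes moved to -0.200 and that of the members to 0.65. The 9 libraries also differed in their short transcripts: the median difference of genes under 1000 bases from the control mean was -0.36 to 0.14 at weeks 7 and 9 and -0.10 to 0.32 at weeks 11 and 13. With transcript length and GC content corrected, the median of the members was 0.77 and none passed.

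**Figure D3:**
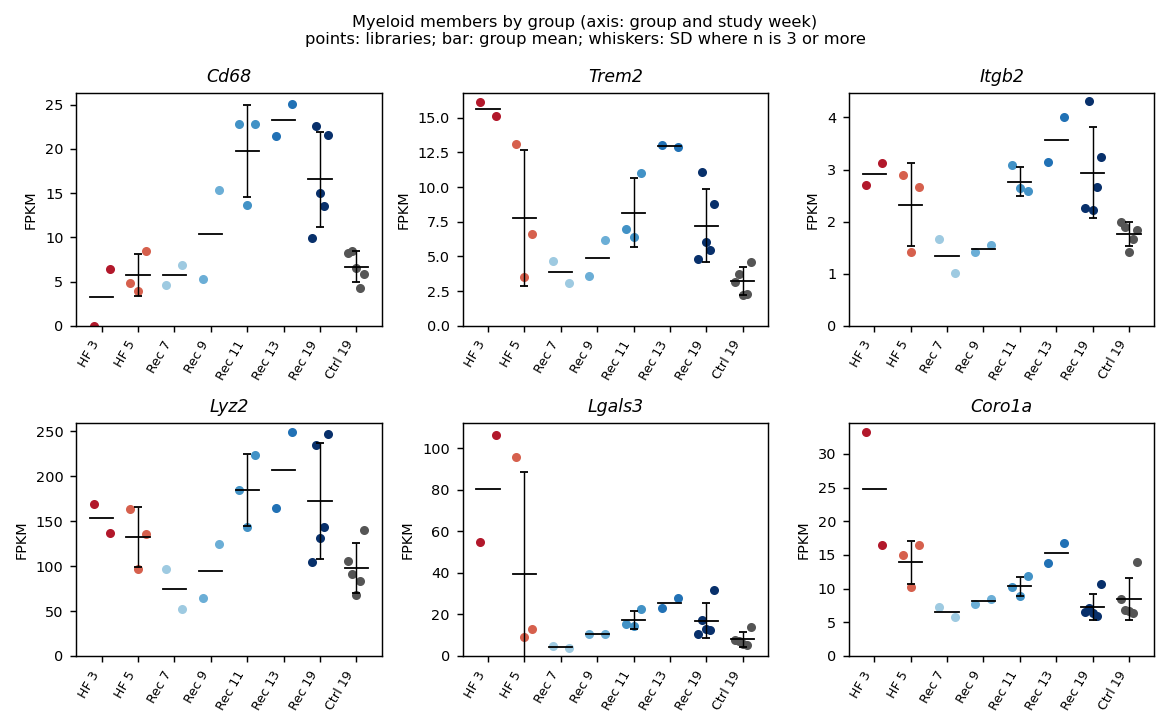
FPKM (linear axis from 0) of 6 myeloid members in each library, by group and study week, with the group mean as a bar and the SD as whiskers where a group has 3 or more libraries (ending at the axis for Lgals3 in HF week 5). Cd68, Trem2, Itgb2 and Lyz2 are higher at Recovery weeks 11 and 13 than at week 7; Lgals3 is set apart by both HF week 3 libraries and HF week 5 library 1.

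The starts of some of these genes are shown because all of them are active in macrophages and several had separate libraries in the comparison above. GAGGAA is a core of the sites bound by PU.1, the transcription factor that macrophages depend on, and it was sought on both strands in the 300 bases from 250 before to 50 after the start of transcription in the RefSeq promoters of the build GRCm38.p6. The table gave 35 such windows for 29 of the members. GAGGAA stood in 19 of these, or 54.3%, and in 28.3% of all 32851 promoters of the same length, while AGAGGAAGT, a longer form that holds the shorter one, stood in none of them and in 1.00% of all. Windows of 1 gene can overlap, and no test was made. Capitals mark each GAGGAA or its reverse complement TTCCTC, and the sequences run 5′ to 3′ on the strand of the gene.
Mrc1, chr2:14229164-14229463, plus strand: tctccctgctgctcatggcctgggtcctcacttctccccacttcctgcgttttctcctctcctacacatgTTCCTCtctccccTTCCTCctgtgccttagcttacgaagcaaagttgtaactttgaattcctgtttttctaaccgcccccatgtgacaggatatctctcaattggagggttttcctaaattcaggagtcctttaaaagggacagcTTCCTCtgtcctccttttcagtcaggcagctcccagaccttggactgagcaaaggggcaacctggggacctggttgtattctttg
Cd68, chr11:69666121-69666420, minus strand: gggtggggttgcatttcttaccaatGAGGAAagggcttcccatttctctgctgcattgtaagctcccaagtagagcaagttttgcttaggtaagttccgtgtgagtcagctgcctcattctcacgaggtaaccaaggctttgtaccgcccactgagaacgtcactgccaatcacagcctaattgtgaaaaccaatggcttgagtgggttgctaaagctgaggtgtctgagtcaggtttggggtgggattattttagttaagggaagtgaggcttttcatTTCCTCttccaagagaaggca
Ctss, chr3:95526536-95526835, plus strand: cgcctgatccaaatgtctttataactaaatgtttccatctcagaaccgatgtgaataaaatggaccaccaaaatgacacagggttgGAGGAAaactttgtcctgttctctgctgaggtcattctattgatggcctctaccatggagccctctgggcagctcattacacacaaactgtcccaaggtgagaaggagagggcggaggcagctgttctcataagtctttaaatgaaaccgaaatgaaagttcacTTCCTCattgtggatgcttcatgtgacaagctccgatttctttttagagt
Trem2, chr17:48346151-48346450, plus strand: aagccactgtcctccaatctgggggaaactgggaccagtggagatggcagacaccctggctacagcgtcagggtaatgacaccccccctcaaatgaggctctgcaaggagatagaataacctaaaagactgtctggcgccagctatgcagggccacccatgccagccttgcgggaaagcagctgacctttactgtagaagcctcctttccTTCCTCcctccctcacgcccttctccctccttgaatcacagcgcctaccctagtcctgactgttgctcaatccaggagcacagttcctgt
Lyz2, chr10:117282223-117282522, minus strand: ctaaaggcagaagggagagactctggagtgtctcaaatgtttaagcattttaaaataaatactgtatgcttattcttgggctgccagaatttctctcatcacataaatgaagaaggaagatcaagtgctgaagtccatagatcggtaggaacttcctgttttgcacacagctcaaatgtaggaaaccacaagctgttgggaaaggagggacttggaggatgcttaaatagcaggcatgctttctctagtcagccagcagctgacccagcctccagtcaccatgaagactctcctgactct
Lgals3, chr14:47373610-47373909, plus strand: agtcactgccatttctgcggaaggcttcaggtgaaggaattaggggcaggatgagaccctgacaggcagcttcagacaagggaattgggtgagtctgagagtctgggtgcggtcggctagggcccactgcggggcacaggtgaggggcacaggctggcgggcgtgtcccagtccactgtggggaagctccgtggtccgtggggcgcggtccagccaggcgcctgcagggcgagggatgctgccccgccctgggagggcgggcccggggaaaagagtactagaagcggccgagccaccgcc
Mrc1 holds 3 matches, Cd68 and Ctss 2 each and Trem2 1, the last of them beginning 40 bases before the start. The windows of Lyz2 and Lgals3 hold none, although both genes were separate between the early and the middle weeks. A match describes the letters of the window only.

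At the end of recovery most myeloid members were above control on the mean, but none passed the adjusted p. The comparison of Recovery week 19 with Control week 19 asks whether the heart returned to the state of an untreated heart of the same age. Of the 27 myeloid members tested, 24 had a mean above control, with a median log2 difference of 0.48, and the 3 below it were Cd52, Coro1a and Fcgr1. The lymphoid median was 0.03. The median over all genes tested was -0.012. Over all 32 members 0 passed the adjusted p of limma, where the background was 0.0235%. At the unadjusted p 11 passed, all of them myeloid and all higher, and the background of genes higher at that p was 2.01%. Every Recovery week 19 library lay above every control library for 6 members, Cd68, Cd163, Trem2, Gpnmb, Itgb2 and Laptm5, against 0.925% of all genes tested.

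Cd68 had the largest difference. The recovered hearts read 9.97, 22.6, 15, 13.6 and 21.6 FPKM and the controls 8.28, 8.5, 6.54, 4.26 and 5.88 FPKM. The groups did not overlap, and the log2 difference was 1.22 ± 0.472. Trem2 read 4.83, 11.1, 6.01, 5.45 and 8.74 FPKM in recovered hearts against 3.17, 3.73, 2.24, 2.28 and 4.59 FPKM in controls, again with no overlap. Its difference of 1.04 ± 0.283 had the lowest adjusted p of the members, 0.836. Lgals3, the lectin galectin-3, differed by 1.01 ± 0.450, but control library 5, at 14 FPKM, lay above 3 of the recovered libraries at 10.4, 13.2 and 12.5 FPKM.

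Lyz2, at 105.1, 235.3, 131.8, 143.2 and 247.1 FPKM, overlapped the controls at 105.3, 90.8, 67.5, 83.5 and 140.6 FPKM and differed by 0.78 ± 0.267. Itgb2 read 2.26, 4.31, 2.22, 2.66 and 3.25 FPKM against 2, 1.89, 1.42, 1.67 and 1.84 FPKM and differed by 0.58 ± 0.170. Laptm5, a lysosomal membrane protein of blood cells, read 9.46, 15.8, 8.77, 9.49 and 9.59 FPKM against 8.69, 7.11, 5.78, 5.68 and 4.64 FPKM. The gap was narrow for Laptm5, where the lowest recovered library at 8.77 FPKM faced the highest control at 8.69 FPKM. Gpnmb read 1.2, 1.18, 0.852, 0.911 and 1.5 FPKM against 0.802, 0.8, 0.435, 0.424 and 0.484 FPKM, without overlap, and differed by 0.58 ± 0.201.

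The other members that passed the unadjusted p had overlapping libraries. Emr1, which encodes F4/80 and is now named Adgre1, read 2.23, 5.09, 2.36, 3.18 and 4.02 FPKM against 2.24, 2.1, 1.51, 1.51 and 2.77 FPKM, a difference of 0.59 ± 0.257. Ctss read 15.1, 24.7, 18, 19.8 and 26.8 FPKM against 14.3, 13.8, 10.4, 12.1 and 20.8 FPKM, a difference of 0.54 ± 0.246. In both the highest control library lay above the lowest recovered one. Cd53, a tetraspanin of leukocytes, read 1.6, 2.78, 1.78, 2.55 and 2.95 FPKM against 1.54, 1.09, 1.12, 1.68 and 1.91 FPKM and differed by 0.52 ± 0.215. Folr2 read 11, 31.1, 15.1, 15.7 and 23.6 FPKM against 16.7, 10.7, 8.7, 11.6 and 10.2 FPKM and differed by 0.66 ± 0.245. Csf1r read 9.88, 18.5, 11.1, 11.2 and 14.2 FPKM against 11.2, 10.7, 7.81, 8.03 and 9.2 FPKM and differed by 0.43 ± 0.204. In these 3 the highest recovered libraries lay above every control while the lowest lay among the controls.

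Laptm5, although its libraries were separate, differed by 0.69 ± 0.381 and did not pass at the unadjusted p of limma (0.0864). The same held for Cd163, at 3.38, 4.35, 3.16, 2.84 and 2.95 FPKM against 2.26, 2.57, 1.51, 2.54 and 2.53 FPKM, with a difference of 0.47 ± 0.250 (unadjusted p = 0.0765). None of the myeloid members that follow passed either. Cd52, a surface peptide of leukocytes, was on average lower in recovered hearts, by a log2 difference of -0.35 ± 0.391, with 1 control library at 48.8 FPKM against 10.6 to 20.1 FPKM in the others. Coro1a stood at -0.17 ± 0.213 and Fcgr1, the high-affinity IgG receptor, at -0.03 ± 0.203. S100a8 and S100a9 had differences of 0.35 ± 0.566 and 0.44 ± 0.517. Itgax, the integrin CD11c of dendritic cells and some macrophages, was too low to be tested: its recovered libraries read 0.117 to 0.208 FPKM and the controls 0.287 to 0.384 FPKM.

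The count at the unadjusted p ran from 5 without Recovery week 19 library 2 to 14 without Recovery week 19 library 1 or without control library 5. It was 6 without control library 3 or without Recovery week 19 library 5, and 7 without control library 4. With transcript length and GC content corrected it was 14, and with the 4 libraries rich in Myl7 left out it was also 14, against 2.24% and 4.20% of all genes higher in those fits. The short transcripts of Recovery week 19 ranged from -0.38 in library 1, where the myeloid median difference from control was 0.03, to 0.38 in library 5, where that median was 0.83. The part of this in the result was not tested beyond that correction.

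**Figure D4:**
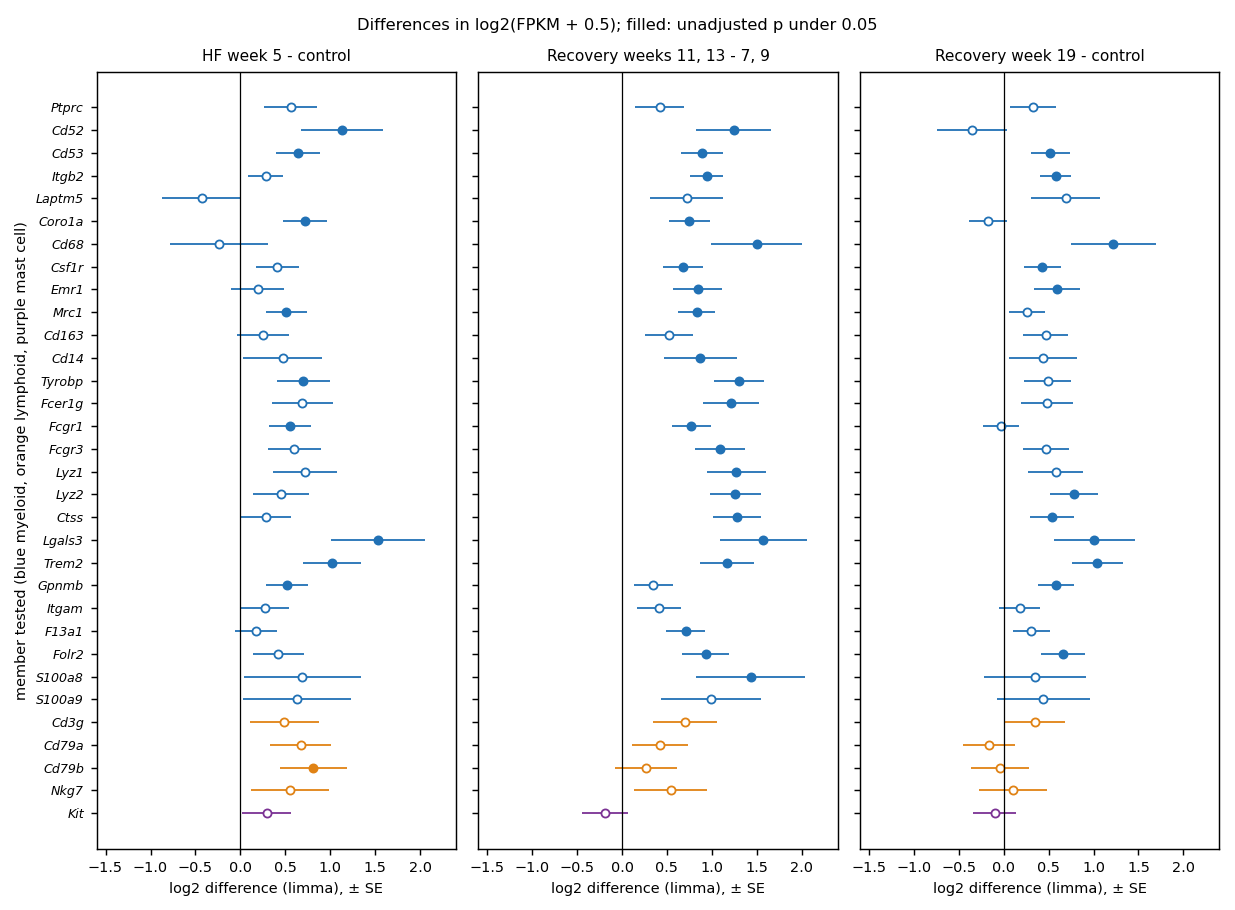
Log2 difference ± SE from limma for the 32 members tested, in 3 comparisons: HF week 5 minus control, Recovery weeks 11 and 13 minus weeks 7 and 9, and Recovery week 19 minus control. Filled points passed the unadjusted p; all 27 myeloid points lie right of 0 in the middle panel and 24 of them in the right panel, where no lymphoid or mast cell point is filled.

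Heart failure itself was compared with Control week 19. At HF week 5, 30 of 32 members had a mean above control and the median log2 difference was 0.54, with 0.52 for the myeloid and 0.61 for the lymphoid members. The adjusted p of limma called 3 higher and none lower, against 11.6% of all genes called higher. At the unadjusted p 10 were higher, against 18.8% of all genes. None of the 32 members tested was free of overlap between the groups, against 29.5% of all genes in either direction.

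The 3 members called were Lgals3, Trem2 and Coro1a. Lgals3 read 96.1, 9.05 and 13.1 FPKM in HF week 5 against 7.79, 7.3, 5.58, 5.46 and 14 FPKM in the controls, a rise of 1.53 ± 0.520 (adjusted p = 0.0386). The first of the HF libraries stood far above everything else in that set. Trem2 read 13.1, 3.51 and 6.6 FPKM and rose by 1.02 ± 0.326 (adjusted p = 0.0291), and Coro1a read 15, 10.3 and 16.4 FPKM against 8.52, 6.83, 6.7, 6.36 and 13.9 FPKM and rose by 0.72 ± 0.246 (adjusted p = 0.0395). Library 1, which held the most atrial RNA and the airway gene, was also highest for Cd14, the coreceptor for lipopolysaccharide, at 27.2 FPKM against 4.93 and 8.15 FPKM in the other 2, and for S100a8, at 40.4 FPKM against 7.68 and 4.07 FPKM. Its median difference from control over all members was 0.93, beside 0.10 and 0.53 in the other libraries.

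Without HF week 5 library 1 none of the members was called, and Lgals3 stood at 0.50 (adjusted p = 0.422), Trem2 at 0.57 (adjusted p = 0.273) and Coro1a at 0.65 (adjusted p = 0.155). With HF week 5 represented by library 3 alone, which held little atrial or adipocyte RNA, 2 other members passed, the B cell gene Cd79a at 1.15 and Kit at 0.88, against 3.75% of all genes called higher. That fit assumes that the lone library varies like the other groups. The count was also 0 without control library 3, where Lgals3 stood at 1.43 (adjusted p = 0.0817), Trem2 at 0.92 (adjusted p = 0.0697) and Coro1a at 0.65 (adjusted p = 0.0876), and without control library 4. In these fits 7.79% and 8.35% of all genes were called higher. The count was 1 without control library 1, control library 2 or HF week 5 library 3, and 8 without control library 5 or HF week 5 library 2. Over these 8 fits that leave out 1 library each, the median of the members was 0.29 to 0.73, and 10.7% to 28.6% of all genes were called in either direction.

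At HF week 3, with 2 libraries, 12 members were called higher and 2 lower, against 23.1% and 27.6% of all genes. Lgals3 read 54.9 and 106.5 FPKM and rose by 3.26 ± 0.596 (adjusted p = 0.000214). Trem2, at 16.1 and 15.1 FPKM, rose by 2.16 ± 0.374 (adjusted p = 0.000129), and both its libraries stood above every recovery and control library. Fcgr1, at 5.17 and 2.93 FPKM, rose by 1.67 ± 0.269 (adjusted p = 6.8e-05), Coro1a by 1.47 ± 0.282 and Mrc1 by 1.09 ± 0.259. Lyz1, the second lysozyme gene, read 13.7 and 8.7 FPKM against 2.81 to 5.77 FPKM in the controls and rose by 1.38 ± 0.406 (adjusted p = 0.00859). F13a1, the A subunit of coagulation factor XIII, read 10.5 and 5.77 FPKM against 3.57 to 4.77 FPKM and rose by 0.84 ± 0.268 (adjusted p = 0.0142). The other members called higher were Cd53, Gpnmb and Itgb2 and, outside the myeloid group, Cd3g and Kit. Without control library 3, Gpnmb stood at 0.62 (adjusted p = 0.0741) and Itgb2 at 0.54 (adjusted p = 0.0675), while Lgals3, Trem2 and Coro1a stayed called.

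Cd68 and Laptm5 were called lower at -1.92 ± 0.624 and -2.17 ± 0.504, but HF week 3 library 1 lists both at 0 while library 2 reads 6.4 and 4.01 FPKM. Without that library they stood at -0.02 (adjusted p = 0.977) and -0.58 (adjusted p = 0.24), and 8 members were called higher and none lower, against 14.5% and 15.6% of all genes in that fit. Itgam, the integrin CD11b, read 0.171 and 1.53 FPKM in the 2 libraries. Without library 2 it was called lower at -0.74 (adjusted p = 0.0258), while both libraries together gave 0.06 ± 0.303. A fit without 1 of the 2 libraries rests on the other alone, which is assumed to vary like the other groups. Both libraries were rich in atrial and adipocyte genes, so no value of HF week 3 can be given without them.

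The first weeks after withdrawal were compared with HF week 5. At Recovery week 7, 9 members were called lower and none higher, against 6.75% of all genes called lower, and the median log2 difference was -0.82. They were Cd52, Cd53, Tyrobp, Fcgr1, Fcgr3, Lgals3, Coro1a, S100a8 and S100a9. S100a8 read 0.827 and 1.15 FPKM at week 7 and fell by 2.96 ± 0.817 (adjusted p = 0.0214). Tyrobp, at 24.5 and 30.1 FPKM against 88.5, 53 and 84.5 FPKM in HF week 5, fell by 1.42 ± 0.372 (adjusted p = 0.0163), and the groups did not overlap. The libraries of week 7 lay wholly below HF week 5 for 19 members, against 27.0% of all genes. Cd68 was not among them, with 4.58 and 6.85 FPKM against 4.83, 3.89 and 8.44 FPKM and a difference of 0.04 ± 0.681. None was called without HF week 5 library 1, where 2.42% of all genes were called lower, Cd52 stood at -1.91 (adjusted p = 0.0671), Lgals3 at -1.27 (adjusted p = 0.0876) and Coro1a at -0.95 (adjusted p = 0.102), and the median of the members was -0.63. None was called without Recovery week 7 library 2 (1.14% of all genes lower, median of the members -0.56) and 3 were called without library 1 (1.10% and -1.03), and in both fits the library left is assumed to vary like the other groups. With HF week 5 library 3 alone 4 were called lower, Cd52 at -2.45, Fcgr1 at -1.28, Coro1a at -1.27 and Cd79a at -1.55, against 3.49% of all genes. With each library rescaled without its 10 highest genes, the median over all genes was 0.153 and that over the members -0.63. Myh6 was listed at 0 in HF week 5 and at 106008 and 143712 FPKM at Recovery week 7, so the genes left out differed.

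Recovery week 19 against HF week 5 spans the whole recovery. Here 2 members were called lower and none higher, against 24.2% of all genes called in either direction. Cd52 fell by 1.49 ± 0.452 (adjusted p = 0.0221), from 63.8, 23.4 and 49.9 FPKM to 14.1, 9.52, 12.1, 12 and 34.7 FPKM. Coro1a fell by 0.89 ± 0.246 (adjusted p = 0.0136), from 15, 10.3 and 16.4 FPKM to 6.55, 7.05, 6.36, 6 and 10.7 FPKM. In both the recovered library 5 alone reached into the range of HF. Cd68 and Laptm5 went the other way, and every recovered library lay above every HF week 5 library, as in 14.1% of all genes tested. Their differences were 1.46 ± 0.545 (adjusted p = 0.0566) and 1.11 ± 0.440 (adjusted p = 0.0713). Without HF week 5 library 1, Cd79a alone was called, at -1.19 (adjusted p = 0.0358), while Cd52 stood at -1.19 (adjusted p = 0.139) and Coro1a at -0.82 (adjusted p = 0.0696), and without Recovery week 19 library 2 Cd52 was at -1.34 (adjusted p = 0.0535). None of the members was called without HF week 5 library 3. With that library alone in its group 4 members were called, against 10.1% of all genes in either direction. Coro1a fell by 1.14 (adjusted p = 0.0329), Cd79a by 1.31 (adjusted p = 0.0137) and Kit by 0.99 (adjusted p = 0.00922), while Laptm5 rose by 1.20 (adjusted p = 0.0378). Cd52 was not called in that fit, at -1.73 (adjusted p = 0.0889). This comparison shares its libraries with each of the others of week 5 and week 19.

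The mean of Recovery weeks 7, 9, 11 and 13 against Control week 19 gave 0 calls at the adjusted p, where 0.0549% of all genes were higher. At the unadjusted p 3 myeloid members were higher, Cd68, Csf1r and Trem2, against 3.36% of all genes, and S100a8 was lower, against 3.53%. Trem2 had a log2 difference of 0.98 ± 0.251 (adjusted p = 0.281) and S100a8 one of -1.22 ± 0.502 (adjusted p = 0.637). The mean of these weeks joins low and high ones, since the median difference of the myeloid members from control was -0.12 and -0.58 in the libraries of week 7 and -0.26 and 0.25 in those of week 9, but 0.68, 0.42 and 0.82 in those of week 11 and 0.66 and 1.08 in those of week 13. The 10 highest genes held 27.9% to 37.4% of the FPKM in these libraries and 14.6% to 18.8% in those of weeks 5 and 19. Myh6 was listed at 106008 to 316195 FPKM in the former and at 0 in every one of the latter. Since an exact 0 can be a failed estimate, this gap is not read as a difference between the hearts. Rescaling without the 10 highest genes of each library moved the median over all genes to -0.108 and that of the members from 0.23 to 0.13. The genes left out differed between the sets.

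The lymphoid members were low throughout. Of the T cell genes, Cd3e, a chain of the T cell receptor complex, read 0.0857 to 0.785 FPKM over the 24 libraries, Cd4 read 0 to 0.815 FPKM and Cd8a 0 to 0.296 FPKM, with 4 libraries at 0. Cd3g, another chain of that complex, read 0.0542 to 1.10 FPKM in 23 libraries and 5.13 FPKM in HF week 3 library 1, and the call of a rise at HF week 3 (1.55 ± 0.443, adjusted p = 0.00696) was the only lymphoid one in the 6 comparisons laid out from the labels. Without that library Cd3g stood at 0.37 (adjusted p = 0.522), and with that library alone in its group at 2.74. In HF week 3 library 1 Cd79a, Cd79b, Nkg7 and Cd4 were listed at 0.

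The B cell genes Cd79a and Cd79b encode the signalling pair of the B cell receptor. Cd79b read 1.74, 1.05 and 1.98 FPKM at HF week 5 and 0.602, 0.608, 0.509, 0.796 and 0.697 FPKM at Recovery week 19. All recovered libraries lay below HF week 5, as in 12.7% of all genes tested, and Cd79b was the 1 member of the 32 with this order. The difference was -0.85 ± 0.375 (adjusted p = 0.105). The controls, at 1.02, 1.24, 0.239, 0.249 and 1.01 FPKM, covered the whole range of the recovered libraries and reached the lowest HF week 5 library, while the other 2 lay above every control. Cd79a was at 0.58, 1.59 and 1.98 FPKM in HF week 5, at 0.25 to 1.02 FPKM in Recovery week 19 and at 0.473 to 0.832 FPKM in controls. Nkg7, a granule protein of NK and cytotoxic T cells, overlapped between HF or recovery and control in each comparison and read 0 to 2.05 FPKM. Of 38 further lymphoid genes on a list, 9 could be tested; 1 was higher at HF week 5, Cd72, a B cell receptor also found on macrophages, at 0.84 (adjusted p = 0.0105), and none was called between Recovery week 19 and control. At HF week 3, 4 were higher, Lat, Il2rg, Thy1 and Cd72, and Ctla4, an inhibitory receptor of T cells, was lower at -1.54 (adjusted p = 0.00337), with a median over the 9 of 0.31. Without HF week 3 library 1 the genes called were Cd2, Thy1 and Cd72, all 3 higher. Recovery week 19 against HF week 5 called Cd72 lower at -1.18 (adjusted p = 0.00116), and the median was -0.32. Without the libraries rich in Myl7, Cd72 stood at 0.88 at HF week 5 (adjusted p = 0.0971) and at -1.21 in Recovery week 19 against it (adjusted p = 0.0295). Between Recovery weeks 11 and 13 and weeks 7 and 9 none of the 9 was called, 7 were positive and the median was 0.23. In the fit without the libraries rich in Myl7, Il2rg and Thy1 of 8 tested were called higher there, with a median of 0.37. Of 7 thymus genes the sum stayed at 0 to 2.72 FPKM in every library.

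**Figure D5:**
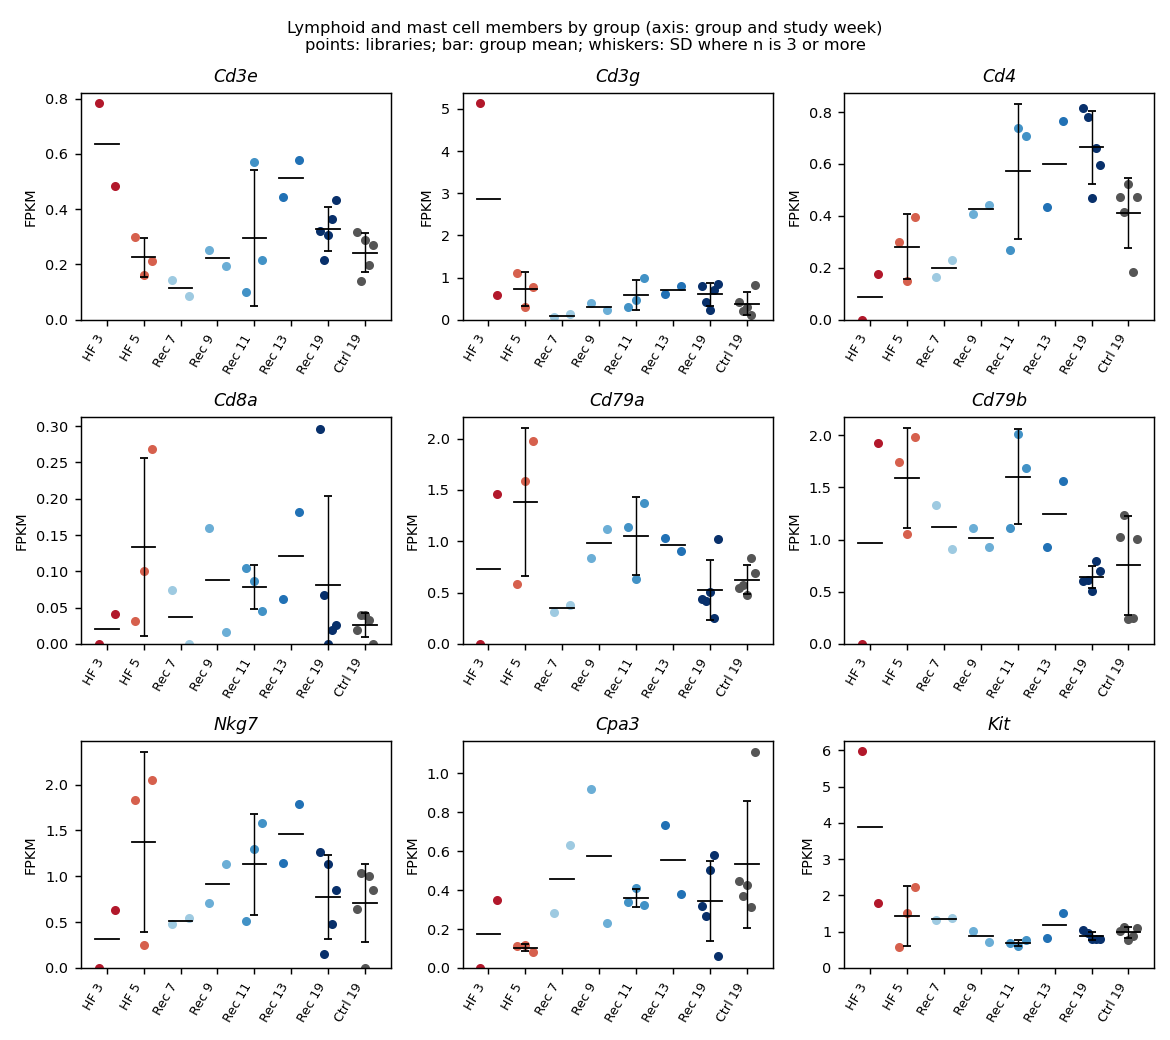
FPKM (linear axes from 0, each with its own scale) of the 7 lymphoid and 2 mast cell members in each library, by group and study week, with group means and, for groups of 3 or more libraries, the SD. Nearly all values lie under 2 FPKM, HF week 3 library 1 stands alone in Cd3g (5.13 FPKM) and Kit (5.99 FPKM), and Cpa3 is low in all 3 HF week 5 libraries.

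The mast cell members did not move together. Cpa3, carboxypeptidase A of mast cell granules, was too low to be tested. It read 0.111, 0.119 and 0.0844 FPKM at HF week 5 and 0.446, 0.371, 0.424, 0.313 and 1.11 FPKM in the controls, so that all HF week 5 libraries lay below all controls. Of all genes tested, 29.5% were free of overlap in either direction in this comparison. At Recovery week 19 it read 0.0611 to 0.582 FPKM. Kit, the receptor of stem cell factor, which is found on mast cells but also on progenitors and other cells of the heart, read 0.574 to 2.23 FPKM in 23 libraries and 5.99 FPKM in HF week 3 library 1. It was called higher at HF week 3 by 1.38 ± 0.315 (adjusted p = 0.00138), but stood at 0.63 without that library (adjusted p = 0.14) and at 2.13 with it alone in its group. Between Recovery week 19 and control Kit stood at -0.10 ± 0.238.

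Of 13 further mast cell genes 5 could be tested. Hdc, which makes histamine, was higher at HF week 5 by 1.30 (adjusted p = 0.00934) and it is also expressed by other myeloid cells. It read 6.29, 1.41 and 2.63 FPKM in HF week 5 and 0.621 and 3.57 FPKM in HF week 3, and the first of these was the lowest value of all 24 libraries. Hdc fell by 1.41 at Recovery week 7 (adjusted p = 0.0317) and by 1.19 at Recovery week 19 (adjusted p = 0.0158), both against HF week 5. Without the libraries rich in Myl7 these differences of Hdc were 1.16, -1.28 and -1.05, at adjusted p-values of 0.00535, 0.00696 and 0.0089. At HF week 3 the genes called higher were Cma1, a chymase of mast cells, at 1.37 (adjusted p = 0.0174), and Gata2, while Tpsb2, a tryptase, was lower. The median of the 5 was 0.61 there, and without HF week 3 library 1 Hdc alone was called, at 1.54 (adjusted p = 0.00669). The mast cell protease Mcpt4 read 0 to 6.46 FPKM and overlapped between HF week 5 and control. Mcpt1 was listed at 0 in every library, and none of the 5 was called between Recovery week 19 and control.

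A list of 48 further myeloid genes, chosen with earlier results of these data known, stood beside the members. Of its 42 tested genes, 9 were higher and none lower at HF week 5, with a median log2 difference of 0.48, and Lilrb4, an inhibitory receptor, was highest at 1.78 (adjusted p = 0.00302). At HF week 3, 25 were higher and 1 was lower, Cd48, with a median of 0.62, and without HF week 3 library 1, 14 of 40 were higher and none lower. At Recovery week 7 against HF week 5, 9 were lower and none higher, with a median of -0.68. At Recovery week 19 against HF week 5, 5 were lower, Aif1, Ncf4, Clec7a, Ccr2 and Cx3cr1, none was higher, and the median was -0.20. Without the libraries rich in Myl7, 38 of the genes were tested. Only Aif1 of them was then called higher at HF week 5 and lower at Recovery week 19 against it, and 4 were lower at Recovery week 7, while Lilrb4 stood at 1.50 at HF week 5 (adjusted p = 0.1). Between Recovery weeks 11 and 13 and weeks 7 and 9 none passed the adjusted p, 40 of 42 were positive and the median was 0.57, and without the libraries rich in Myl7 Mpeg1, Ms4a7 and Lyve1 passed. Its highest gene there was Ms4a7, a membrane protein of macrophages, at 1.35 (adjusted p = 0.0721), and its lowest was Stab1, a scavenger receptor of tissue macrophages and some endothelium, at -0.25 (adjusted p = 0.805). Ms4a7 also led at Recovery week 19 against control, at 1.21 (adjusted p = 0.118), with 5.17, 9.11, 5.84, 6.96 and 9.45 FPKM against 2.93, 3.44, 2.45, 1.96 and 3.4 FPKM and no overlap. There 36 of 42 were positive and the median was 0.25.

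Genes of other cell types were called in some of the same comparisons. At HF week 5, 7 of 10 fibroblast genes, 5 of 10 endothelial genes, 3 of 5 smooth muscle genes and 4 of 4 tested adipocyte genes were also higher. At HF week 3, 7 fibroblast, 8 endothelial, 2 smooth muscle and 4 adipocyte genes were higher and 1 endothelial gene was lower, with medians of 1.23 for fibroblast, 0.66 for endothelial and 4.41 for adipocyte genes. At Recovery week 7 against HF week 5, where 9 members were called lower, 3 fibroblast, 5 endothelial, 3 smooth muscle and 4 adipocyte genes were lower and none higher, with medians of -0.68 for fibroblast, -0.66 for endothelial and -3.25 for adipocyte genes. At Recovery week 19 against HF week 5 the counts lower were 3, 5, 4 and 4 in that order, again with none higher, and these medians were -0.38, -0.47 and -3.47. At Recovery week 19 against control none of these 4 lists held a called gene, and the medians were 0.34 for fibroblast, -0.02 for endothelial and -0.12 for smooth muscle genes. Between Recovery weeks 11 and 13 and weeks 7 and 9 the fibroblast median was 0.40, the endothelial median 0.05 and the smooth muscle median 0.02, and none was called. Of the 12 cardiomyocyte genes, Myh6, Actc1, Mb and Myl2 were listed at 0 in every control library, and their calls, which include those of Actc1 and Myl2 at Recovery week 19 against control, are not read. Of the other 8, Pln and Atp2a2, which regulate and carry out calcium uptake, were lower at HF week 5, with Pln at -0.87 (adjusted p = 0.0157), and Tnnt2, Ryr2, Pln and Atp2a2 were lower at HF week 3, with Atp2a2 at -2.02 (adjusted p = 1.66e-07). Against HF week 5, Atp2a2 was higher at Recovery week 7, and Pln and Atp2a2 at Recovery week 19. For these lists of other cell types, no values without the libraries rich in Myl7 are given. The part of the atrial RNA in their calls was not tested. The 5 red blood cell genes summed to 1509 to 7933 FPKM over all libraries, and the median of the 3 tested was -0.60 at Recovery week 19 against control. The 11 neutrophil granule genes summed to 3.80 to 31.2 FPKM, with the highest sums in HF week 3 and HF week 5 library 1, and Mpo was listed at 0 in every group. The 5 eosinophil genes summed to 0 to 3.17 FPKM. The part of these cells in the differences of the members was not tested.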

How the data were processed

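RNA of mouse hearts was sequenced, and the FPKM values per gene were deposited by the authors as 1 table, made with TopHat v2.0.12 and Cuffdiff on the build mm9 per the labels and the methods. The counting of shared reads is not given in the sources used here, and the absolute depth is unknown. Of its columns 24 were used. Another 5, named for Control week 5, could not be tied to the 4 samples labelled so, and the planned comparison with that group was not run. Recovery week 9 has 3 labelled samples and 2 columns.

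The 12759 genes that averaged 0.5 FPKM or more across all 24 libraries were fitted on log2(FPKM + 0.5) with limma 3.58.1 in R 4.3.3, all groups together with 16 residual degrees of freedom, and two-sided p-values were adjusted over all of them by Benjamini-Hochberg at 0.05. On this scale the change of low genes is understated. Summaries and plots were made in Python 3.11.15 with pandas 2.3.3 on numpy 2.4.6, and with matplotlib 3.10.9 for the plots. The fit was tested on simulated data. All members were named, those the results turn on with values per library and the rest by their difference or range, and genes outside the members came from lists by their extremes. The members and lists were chosen with earlier results of these data known. The comparison of Recovery weeks 11 and 13 with weeks 7 and 9, the atrial genes, the fit without libraries rich in Myl7 and the correction for transcript length and GC content were chosen after the values were seen. That correction used GRCm38 annotation for 11945 genes (93.6%). Other alternatives were pseudocounts of 0.1 and 1 FPKM, other filters, 3 scalings, fewer groups and leaving out each library. Promoters are those of RefSeq for GRCm38.p6.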

Additional observations from a re-analysis of the deposited data

Results flagged for a closer look

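In the 2 groups with enough libraries, Recovery week 19 and Control week 19, the highest or lowest library stood apart from the other 4 by Dixon's criterion in 14 of 74 cases. With normal and independent values about 1 in 20 such cases would be flagged. These values are FPKM without a log, and members in the same library are not independent, so no excess over chance is read. Control week 19 library 5 held 5 of them, all on the high side, with 48.8 FPKM of Cd52, 55.0 FPKM of Fcer1g, 14.0 FPKM of Lgals3, 13.9 FPKM of Coro1a and 1.11 FPKM of Cpa3. In the other control libraries, Cd163 was low in library 3 at 1.51 FPKM and Itgam high in library 1 at 0.842 FPKM. Recovery week 19 library 5 was high for Cd52 at 34.7 FPKM and for Coro1a at 10.7 FPKM. Recovery week 19 library 2 was high for Cd14 at 29.4 FPKM and for Laptm5 at 15.8 FPKM. Recovery week 19 library 1 was high for Ptprc at 1.51 FPKM and for Cd8a at 0.296 FPKM, and library 4 for S100a8 at 16.0 FPKM.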

How the results depend on the processing

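No paired analysis was made, because mice were sacrificed at each time point and the groups hold different animals. Counts of members called that moved were as follows, each with the share of all genes called in either direction in the same fit, and the cause was not tested. HF week 5 against control gave 3 (11.6% of all genes higher and 12.4% lower), and 10 at the unadjusted p (36.5%), 0 without a filter on low values (13.6%), 0 with only the groups compared (25.0%), 6 without HF week 3 (34.1%) and 0 to 8 when 1 library was left out (10.7% to 28.6%). Recovery week 19 against HF week 5 gave 2 (24.2%), and 7 at the unadjusted p (36.8%), 5 with only the groups compared (18.9%), 4 with a pseudocount of 1 FPKM (24.7%), 4 after quantile normalization (27.5%), 7 without HF week 3 (34.1%), 4 without the libraries rich in Myl7 (10.1%) and 0 to 3 when 1 library was left out (12.2% to 25.5%). Recovery week 19 against control gave 0 (0.0235%), and 11 at the unadjusted p (2.88%), where leaving out 1 library gave 5 to 14 (1.73% to 4.14%). HF week 3 against control gave 14 (50.7%), and 8 to 16 when 1 library was left out (30.1% to 62.9%), with Itgam at -0.74 to 0.85 and reversed without library 2. Recovery week 7 against HF week 5 gave 9 (14.8%), and 18 at the unadjusted p (29.8%), 5 without a filter (6.84%), 0 with only the groups compared (2.47%), 16 without HF week 3 (24.2%), 4 without the libraries rich in Myl7 (8.74%) and 0 to 15 when 1 library was left out (2.98% to 16.9%). The mean of Recovery weeks 7 to 13 against control gave 0 (0.0705%), and 4 at the unadjusted p (6.90%) and 1 with only the groups compared (0.878%). Recovery weeks 11 and 13 against weeks 7 and 9 gave 0 (0.00784%), and 21 at the unadjusted p (5.28% higher and 4.73% lower), 13 with only the groups compared (1.81%) and 8 without the libraries rich in Myl7 (0.693%). Of 4524 alternative values for single members, 4256 kept their direction or stayed uncalled, 156 gained a call, 111 lost one and 1 reversed. Among the 4256, 114 changed sign with a call in neither fit. For HF week 3, median centring moved the median over all genes to -0.111. Members near 0 FPKM, the lymphoid ones above all, are limited by depth.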
